A study of Danio rerio with 170 samples.

Results

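PFAS 14 and PFAS 15, the pair of fluorinated diacrylates in a panel of per- and polyfluoroalkyl substances tested in zebrafish embryos, were compared with their vehicle control, Control-B, and with each other. The 8 libraries titled PFAS-14 or PFAS-15 were taken from the 70 libraries of the series, 4 for each compound, and Control-B had 4. Both compounds were given at 20 µM, in the same exposure round (Exposure Round 2, 20 libraries, collected on a single day), and Control-B received the vehicle alone. Everything else was common to the 3 groups: the chorion was removed from Tropical 5D wildtype embryos at 4 hours post fertilization (hpf), the embryos stayed in 96-well plates with 1% DMSO between 6 and 48 hpf, without renewal of the solution, and pools of 10 whole embryos were collected at 48 hpf. The plates were kept in the dark at 28 °C. Both compounds kill many embryos within a day at higher doses, and 20 µM was chosen as a sub-teratogenic dose, so these profiles are not tied to a later malformation. RNA was profiled by QuantSeq 3' sequencing, which reads 1 tag from the 3' end of each transcript, and counts were summed over the 2 flow cells on which each library was run. No source used here says that the replicate pools came from separate clutches, so the p-values measure only the spread between pools of a group, which may be technical. That spread was estimated over 69 libraries, which include those of Exposure Round 1, collected on different days.

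Acrylates are esters of an unsaturated acid whose double bond reacts with thiols such as that of glutathione, and carboxylesterases can cleave the ester before that reaction. In animal cells thiol-reactive chemicals are known to act on KEAP1, the cysteine-rich repressor of the transcription factor NRF2, and on HSF1, the factor behind the heat shock response, which is why the genes of those routes were read first. The lens, whose fibre cells fill with crystallins, was read as well. The lists, that of the lens among them, were chosen with earlier results of these data known.

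The structures differ by a single CF2 group. PFAS 14 is the diacrylate of a pentanediol whose inner carbons are fully fluorinated, written in SMILES as C=CC(=O)OCC(F)(F)C(F)(F)C(F)(F)COC(=O)C=C, with 3 CF2 groups between its 2 acrylate esters. PFAS 15 is the diacrylate of the hexanediol made the same way, C=CC(=O)OCC(F)(F)C(F)(F)C(F)(F)C(F)(F)COC(=O)C=C, with 4 CF2 groups between the same 2 esters. The panel held 1 other acrylate, PFAS 9, 2,2,3,3-Tetrafluoropropyl acrylate, C=CC(=O)OCC(F)(F)C(F)F, which carries 1 ester and was given at 62 µM in Exposure Round 1 with its own control, Control-A (6 libraries). Since dose, round and control all differ, its values are set beside those of the diacrylates without a test.

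The 12 libraries held 14265407 to 29692238 counts, and between 21694 and 22485 genes had a count. Total counts, genes with a count, the share of counts from mitochondrial genes and the share taken by the most abundant gene, ENSDARG00000080337, did not separate the groups: the smallest of 8 unadjusted p-values was 0.343 in exact two-sided permutation tests. The log2 CPM profiles of 12828 genes correlated across genes as closely between groups (median r 0.980, 48 pairs of libraries) as within them (median r 0.980, 18 pairs). PFAS 15 replicate 1 stood apart from the rest, with a median r of 0.971 to the other 11 libraries. Its 59 skeletal muscle genes summed to 87037 CPM against 74114 to 80176 in the others, and its 36 epidermal genes to 24201 against 18213 to 22044. Replicate 1 had the highest of both sums in Control-B (78227 and 21623 CPM) and in PFAS 14 (80176 and 22044 CPM) too. Results that rest on PFAS 15 replicate 1 are given with and without it, with replicate 1 of the other groups kept.

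Exposure to the diacrylates, pooled as 1 class of 8 libraries, left the embryos' RNA close to that of Control-B, and no gene passed the test. Rankings by p are among genes with a symbol and a mean log2 CPM above 1. Those of smallest p were ALAS1, a gene of heme synthesis, on the higher side and ap5s1, a gene of the endosomal system, on the lower side. The summed gamma M-crystallins of the lens, a family within the lens list, lay on average 10.28% to 15.9% below control. Over all 51 lens genes the sums lay on average 8.49% to 12.9% below. These sums were not tested. The fold changes were small: only 2 genes with a mean log2 CPM above 1 differed by more than 2-fold. Counts are given as CPM, scaled to each library's total after TMM normalization, and log2 fold changes and their standard errors come from the quasi-likelihood test of edgeR, which called a gene at an adjusted p under 0.05 (Benjamini-Hochberg over 21928 genes).

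Of the 21928 genes tested, 0 were called (0%) and the smallest adjusted p was 1.00. At an unadjusted p under 0.05 there were 683 genes (3.11%), of which 407 were higher (1.86%) and 276 lower (1.26%). DESeq2 on the same libraries also called 0 of 29305 genes, with 693 at an unadjusted p under 0.05. Without regard to a test, in 39 genes (0.178%) every diacrylate library lay above every control, and in 45 genes (0.205%) every one lay below. If labels were random, a share of 0.00202 of genes would lie so in each direction. Genes named below with all 8 exposed libraries on the same side of the controls are among these 39 and 45. The adjusted p of each gene named in the text was 1.00 in all 4 comparisons in this fit, apart from the lens gene crybgx and the clone-named gene ENSDARG00000095715 in PFAS 14, whose values are given with them.

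The intervals show how large a difference these libraries would have left room for. Among the 12828 genes with a mean log2 CPM above 1, the 95% interval of the pooled log2 fold change stayed within 2-fold in either direction for 12565 genes (97.95%) and within 1.5-fold for 9914 (77.3%). Each compound alone, with 4 libraries against 4, gave wider intervals: 12181 genes (95.0%) stayed within 2-fold for PFAS 14 and 12234 (95.4%) for PFAS 15. For these genes a change of more than 2-fold lay outside the interval, while smaller changes could not be resolved in many of them.

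**Figure D1:**
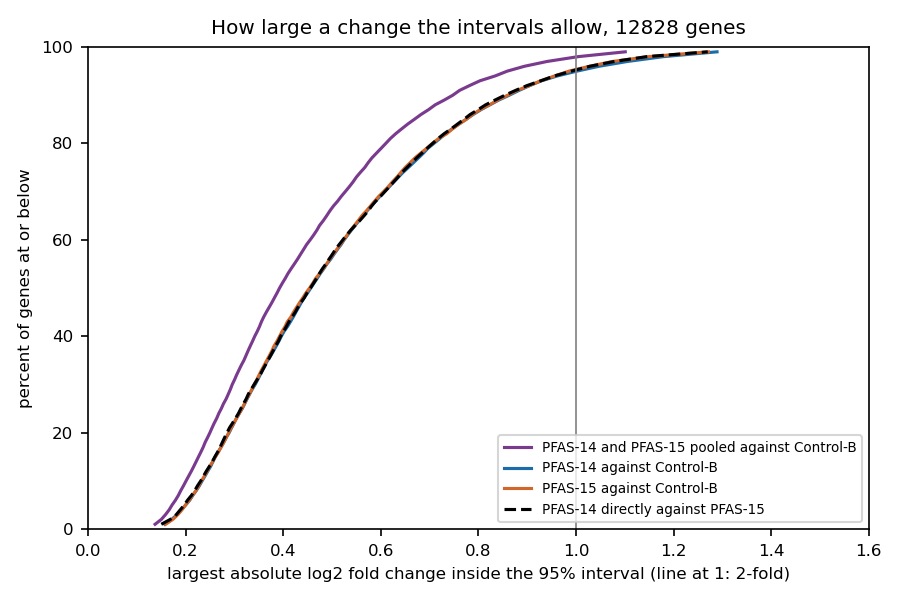
Cumulative percent of the 12828 genes with mean log2 CPM above 1 (y axis) against the largest absolute log2 fold change inside the 95% interval (x axis), one line per comparison; the vertical line stands at 1, a 2-fold difference. At that line the curve of the pooled comparison is at 97.95%, and those of PFAS 14, PFAS 15 and the direct comparison are at 95.0%, 95.4% and 95.3%.

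ALAS1, the rate-limiting enzyme of heme synthesis, had the smallest pooled p among the higher genes with a symbol and a mean log2 CPM above 1. Its CPM was 46.5, 43.3, 41.2 and 39.5 in Control-B, 64.1, 55.8, 43.4 and 53.2 in PFAS 14 and 66.1, 52.6, 52.5 and 58.6 in PFAS 15. Every PFAS 15 library lay above every control, while PFAS 14 replicate 3 fell inside the control range. The pooled log2 fold change was 0.39 ± 0.11 (SE; 95% interval 0.17 to 0.60; unadjusted edgeR p = 0.00056). RGS2, which shortens signals from G protein-coupled receptors, was at 1.77 to 2.42 CPM in Control-B, at 2.79 to 5.81 in PFAS 14 and at 2.96 to 5.08 in PFAS 15 (0.94 ± 0.28). The exposed and control libraries did not overlap for RGS2.

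Also among the 5 higher genes of smallest p were nfkbiaa, which encodes an inhibitor of NF-kappaB that NF-kappaB itself induces, and atad5b, whose human counterpart unloads the replication clamp from DNA. nfkbiaa was at 3.77 to 8.63 CPM in Control-B, 7.88 to 12.0 in PFAS 14 and 7.66 to 9.66 in PFAS 15 (0.69 ± 0.21). atad5b was at 3.67 to 4.32 CPM in Control-B against 4.29 to 7.79 in PFAS 14 and 4.72 to 7.33 in PFAS 15 (0.58 ± 0.18). In each of them at least 1 exposed library lay within the control range.

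Among the lower genes within the same limits, ap5s1, a subunit of the AP-5 adaptor complex of the endosomal system, had the smallest p. It was at 5.80, 7.14, 6.83 and 5.5 CPM in Control-B, 5.41, 3.38, 3.02 and 3.88 in PFAS 14 and 2.58, 3.95, 4.96 and 3.57 in PFAS 15. All 8 exposed libraries lay below all 4 controls, and the pooled log2 fold change was -0.72 ± 0.19 (95% interval -1.10 to -0.33; unadjusted edgeR p = 0.000341). ssna1, a microtubule-binding protein of centrosomes and cilia, did not overlap either, at 3.70 to 5.23 CPM in Control-B, 0.477 to 3.42 in PFAS 14 and 1.1 to 3.38 in PFAS 15 (-1.04 ± 0.31). ca15a, a carbonic anhydrase that zebrafish ionocytes express, was at 6.86 to 8.61 CPM in Control-B, 3.87 to 6.52 in PFAS 14 and 4.98 to 7.92 in PFAS 15 (-0.53 ± 0.17), with PFAS 15 replicate 4 inside the control range. The other lower genes of the rule were zgc:153039 (-0.70 ± 0.19), a clone-based name with no role given, and tppp2 (-0.84 ± 0.27), of the family of tubulin polymerization-promoting proteins.

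**Figure D2:**
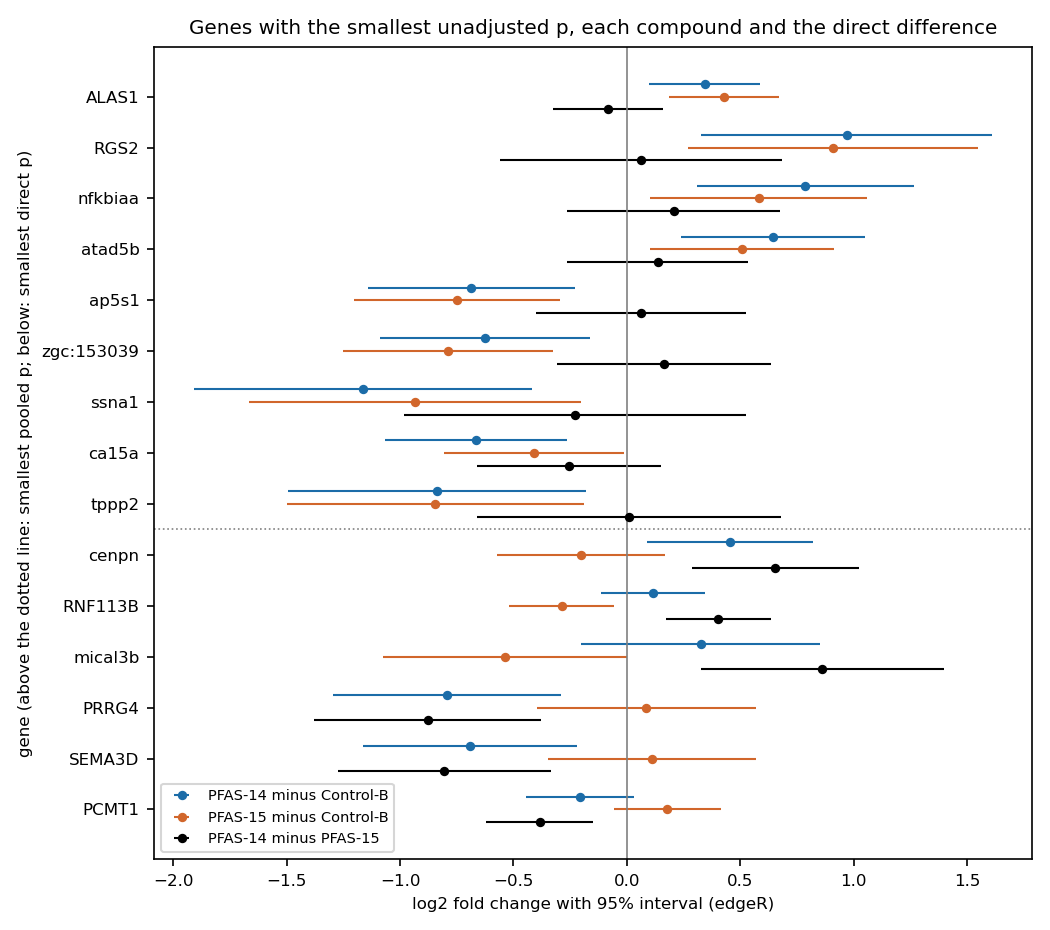
Log2 fold change (x axis) with its 95% interval (horizontal bar) for 15 genes with a symbol and a mean log2 CPM above 1. They are 9 of those of smallest p in the pooled comparison and the 6 of smallest p in PFAS 14 against PFAS 15. Colours separate PFAS 14 against Control-B, PFAS 15 against Control-B and PFAS 14 against PFAS 15. ALAS1, RGS2 and atad5b lie to the right of 0 and ap5s1 and ssna1 to the left for both compounds, while cenpn and PRRG4 stand on opposite sides of 0 in the direct comparison, at 0.65 and -0.88.

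PFAS 14 alone gave 0 called genes of 21928 (0%), with 684 below an unadjusted p of 0.05 (3.12%, of which 351 higher, 1.60%, and 333 lower, 1.52%), and DESeq2 gave 0 with 686. In 298 genes (1.36%) every PFAS 14 library lay above every control, and in 299 (1.36%) every one lay below. The smallest adjusted p of any gene, 0.604 in edgeR, belonged to the lens gene crybgx, of the beta-gamma crystallin family. It was at 3.32, 1.17, 2.47 and 2.17 CPM in Control-B, at 0.358, 0.900, 0.240 and 0.277 in PFAS 14, and at 1.62, 0.760, 2.08 and 1.15 in PFAS 15. All PFAS 14 libraries lay below all controls (log2 fold change -2.32 ± 0.52, unadjusted p = 2.75e-05), while the PFAS 15 libraries overlapped them. This gene is near the filter on low counts, and it was picked out after its values were seen.

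The call of 0 for PFAS 14 depended on which libraries shared the estimate of spread. With only the 20 libraries of Exposure Round 2 in the fit, edgeR called 2 of 19277 genes (0.0104%), and both were lower in PFAS 14: crygm2d11, a gamma M-crystallin (adjusted p = 0.00384), and si:ch211-255g12.6, a clone-based name with no role given (adjusted p = 0.00949). The pooled, PFAS 15 and direct comparisons stayed at 0 in that fit. Leaving out single libraries from it, an alternative chosen after seeing the data, gave 0 to 3 calls for PFAS 14: 0 without PFAS 14 replicate 3, 1 without Control-B replicate 2, Control-B replicate 4 or PFAS 14 replicate 4, and 3 without PFAS 14 replicate 2. DESeq2 on the same 20 libraries, also chosen after seeing the data, called 8 of 5150 genes that its filter on low means left with an adjusted p (0.155%). Of these, 7 were lower, namely crygm2d6, crygm2d9, crygm2d11, crygm2d14, crygm2d16, crybb1l1 and si:ch211-255g12.6, and 1, ENSDARG00000095715, which also has only a clone-based name, was higher.

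si:ch211-255g12.6, whose name carries no role, had the larger counts of the pair called in Round 2 alone. Its CPM was 97.2, 131, 108 and 128 in Control-B, 60.3, 91.9, 55.6 and 50.2 in PFAS 14, and 87.4, 107, 65.9 and 74.3 in PFAS 15. All PFAS 14 libraries lay below the controls, and PFAS 15 replicate 2 lay inside their range. In the fit of 69 libraries its log2 fold change was -0.84 ± 0.25 for PFAS 14 and -0.47 ± 0.25 for PFAS 15. ENSDARG00000095715 lay above every control in all 4 PFAS 14 libraries, at 64.4 to 83.9 CPM against 53.9 to 59.9, and at 54.8 to 72.2 in PFAS 15. Its log2 fold change was 0.42 ± 0.10 for PFAS 14, with an unadjusted p of 9.21e-05 and an adjusted p of 0.939 (edgeR).

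PFAS 15 alone gave 0 called genes (0%) and 674 below an unadjusted p of 0.05 (3.07%; 354 higher, 1.61%, and 320 lower, 1.46%), and DESeq2 gave 0 with 678. lyz, the lysozyme of neutrophils and macrophages, was at 101, 90.5, 73.6 and 70.7 CPM in Control-B, 88.2, 79.4, 77.3 and 63.8 in PFAS 14 and 68.9, 57.7, 60.4 and 47.6 in PFAS 15. Every PFAS 15 library lay below every control, as in 1.09% of all genes (1.1% had every library above), and the PFAS 14 libraries did not separate from them. The log2 fold change was -0.52 ± 0.14 for PFAS 15 and -0.12 ± 0.14 for PFAS 14. Of the 27 macrophage and neutrophil genes tested in PFAS 15, 1 was higher and 1 lower at an unadjusted p under 0.05, with a median log2 fold change of -0.11 against 0.00 over all genes.

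PHB2 (ENSDARG00000045297), one of a pair of genes with the symbol of prohibitin, a scaffold of the inner mitochondrial membrane, was called for PFAS 15 only in smaller fits. It was at 21.2, 33.3, 18.6 and 17.9 CPM in Control-B, 13.2, 14.1, 13.0 and 7.82 in PFAS 14 and 8.82, 10.5, 4.87 and 9.13 in PFAS 15. All 8 exposed libraries lay below the controls, and the pooled log2 fold change was -1.16 ± 0.46 in the fit of 69 libraries. In the unexposed Control-A libraries of Exposure Round 1 this gene ran from 0.574 to 22.9 CPM. Every exposed value lay inside that range, and the smaller fits leave those libraries out. With the 12 libraries of the 3 groups alone, PHB2 was the 1 gene of 18351 called in the pooled comparison (0.00545%) and the 1 called for PFAS 15 (0.00545%), while crygm2d11 was the 1 called for PFAS 14. With 8 libraries, 1 compound and Control-B, 1 of 17875 genes was called for PFAS 15 (0.00559%, PHB2) and 2 of 17488 for PFAS 14 (0.0114%). lyz, PHB2 and the clone-based genes were chosen after their values were seen.

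No gene of the thiol-reactive routes passed the test. Of 42 NRF2 and thiol redox genes, 1 was higher and 0 were lower at an unadjusted p under 0.05 in the pooled comparison (3 and 0 in PFAS 14, 0 and 0 in PFAS 15), with medians of 0.01, 0.02 and 0.02 (-0.03 in PFAS 15 without replicate 1). Over all genes the shares higher and lower were 1.86% and 1.26% pooled, 1.60% and 1.52% in PFAS 14, and 1.61% and 1.46% in PFAS 15. The NRF2 list summed to 1635 to 1747 CPM in Control-B, 1772 to 1959 in PFAS 14 and 1592 to 1965 in PFAS 15, so that all PFAS 14 libraries lay above the controls and the PFAS 15 libraries overlapped them. Much of that difference came from 1 member, gstp1.2. Its mean was 232.8 CPM in Control-B and 333.4 in PFAS 14, where the means of the list sum were 1693.5 and 1828.6. Of 29 genes of glutathione transfer and the mercapturate route, 0 were past that p in the pooled comparison, and the median was 0.06. Of 22 ester hydrolase genes, 0 were past it in the pooled comparison and 1 in PFAS 15.

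gstp1.2 is the pi-class glutathione transferase that NRF2 drives in zebrafish. Its CPM was 251, 243, 231 and 205 in Control-B, 438, 289, 310 and 297 in PFAS 14, and 383, 220, 236 and 241 in PFAS 15. All PFAS 14 libraries lay above all controls, whereas in PFAS 15 replicate 1 alone did. The log2 fold change was 0.52 ± 0.18 for PFAS 14 (95% interval 0.16 to 0.88) and 0.21 ± 0.18 for PFAS 15, the latter -0.00033 without PFAS 15 replicate 1. In all 3 groups replicate 1 was the highest library for gstp1.2, and it was left out of PFAS 15 alone. A TXNIP gene (ENSDARG00000070000), whose product binds thioredoxin, was also above every control in PFAS 14, at 9.27 to 12.2 CPM against 5.77 to 8.94, and at 6.5 to 9.16 in PFAS 15. Its log2 fold change was 0.62 ± 0.27 for PFAS 14. Of the 42 NRF2 and thiol redox genes, 2 lay above every control in all PFAS 14 libraries and 1 lay below. Of all genes, 1.36% did so in each direction.

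Other direct readouts of NRF2 lay close to control. GCLM, the modifier subunit of the enzyme that starts glutathione synthesis, was at 2.89 to 5.55 CPM in Control-B, 3.88 to 6.09 in PFAS 14 and 4.24 to 5.99 in PFAS 15, with a pooled log2 fold change of 0.24 ± 0.21 (95% interval -0.17 to 0.65). HMOX1, a heme oxygenase, was at 6.38 to 8.76, 7.15 to 7.82 and 4.41 to 8.04 CPM in the same order (-0.19 ± 0.20; 95% interval -0.58 to 0.20). NQO1, a quinone reductase, had a pooled log2 fold change of 0.03 ± 0.16. The groups overlapped for each of these genes, and GCLC and NQO1 were chosen after their values were seen: GCLC, the catalytic subunit of the same synthetic enzyme, had -0.04 ± 0.12.

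No heat shock gene was higher at an unadjusted p under 0.05 in the pooled comparison. Of 40 inducible heat shock genes 2 were lower at that p, with a median of -0.04 over the list, and of 26 chaperones of the endoplasmic reticulum 0 were higher and 1 lower. Over all genes 1.86% were higher and 1.26% lower. hsp70.3, an inducible HSP70 gene, was at 3.29, 4.21, 2.29 and 4.01 CPM in Control-B, 1.87, 1.80, 2.26 and 1.87 in PFAS 14 and 2.85, 1.37, 1.5 and 2.18 in PFAS 15. Every exposed library but PFAS 15 replicate 1 lay below all controls, and the pooled log2 fold change was -0.81 ± 0.35 (95% interval -1.51 to -0.11; unadjusted edgeR p = 0.0246). dnajb1a, a co-chaperone of HSP70, had -0.45 ± 0.21, and HERPUD1, which serves the degradation of proteins from the endoplasmic reticulum, -0.51 ± 0.25.

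Other stress routes held no called gene either. Of 27 genes of the integrated stress response, 2 were higher and 1 lower at an unadjusted p under 0.05 in the pooled comparison. Over all genes 1.86% were higher and 1.26% lower. DDIT3, the CHOP factor of the integrated stress response, was at 8.89 to 12.6 CPM in Control-B, 5.61 to 8.46 in PFAS 14 and 5.66 to 10.7 in PFAS 15 (pooled -0.47 ± 0.19). It was below every control in all PFAS 14 libraries, as were 1.36% of all genes. PSPH, which completes serine synthesis, was at 51.3 to 57 CPM in Control-B, 57.2 to 63 in PFAS 14 and 57.8 to 65.7 in PFAS 15. The 8 exposed libraries all lay above the controls for PSPH, with a pooled log2 fold change of 0.21 ± 0.07. ATF3, a stress-induced factor, had 0.01 ± 0.24, and mdm2, the ubiquitin ligase that p53 induces, had 0.11 ± 0.14. Of 30 genes of p53 and its targets and of 35 genes of cell division and DNA replication, 0 were past an unadjusted p of 0.05 in the pooled comparison and in each compound alone.

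For CYP1A1, the target gene by which the aryl hydrocarbon receptor is usually read, 1 library set the direction. It was at 0.637, 0.879, 0.969 and 0.475 CPM in Control-B and 0.318, 0.540, 0.384 and 1.04 in PFAS 14. In PFAS 15 it was at 7.28 in replicate 1 and at 0.228, 0.416 and 0.423 in replicates 2 to 4, so that 3 of the 4 libraries lay below every control. Apart from PFAS 15 replicate 1 all libraries were at 1.04 CPM or below, where counts are low. The log2 fold change of PFAS 15 was 1.49 ± 0.52 with replicate 1 and -1.08 without it, and the pooled value turned from 0.85 ± 0.51 to -0.69. tiparp, another target of that receptor, had 0.27 ± 0.12 in the pooled comparison and 0.25 without PFAS 15 replicate 1.

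Fat oxidation genes lay on both sides of control. ACOX3, a peroxisomal acyl-CoA oxidase, was at 2.92, 5.06, 4.36 and 3.73 CPM in Control-B, 2.43, 2.57, 2.3 and 3.18 in PFAS 14 and 3.04, 2.2, 2.37 and 2.48 in PFAS 15. All but PFAS 14 replicate 4 and PFAS 15 replicate 1 lay below every control, and the pooled log2 fold change was -0.65 ± 0.22. cpt1ab, which admits long-chain fatty acids to mitochondria, had 0.28 ± 0.13. Of the 39 genes of fatty acid oxidation and PPAR, 2 were higher and 2 lower at an unadjusted p under 0.05 in the pooled comparison (1.86% and 1.26% of all genes). Among the 34 immediate early genes 1 was higher and 0 lower at that p, with a median of 0.03. DUSP5, a phosphatase of ERK, had 0.58 ± 0.27. The list summed to 1154 to 1179.1 CPM in Control-B, 1199.7 to 1351.5 in PFAS 14 and 1189.1 to 1230.1 in PFAS 15. All exposed libraries lay above the controls in this sum, which was picked out after its values were seen and was not tested. Much of it came from BTG1, with means of 714, 790 and 750 CPM in the same order (pooled 0.11 ± 0.06).

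**Figure D3:**
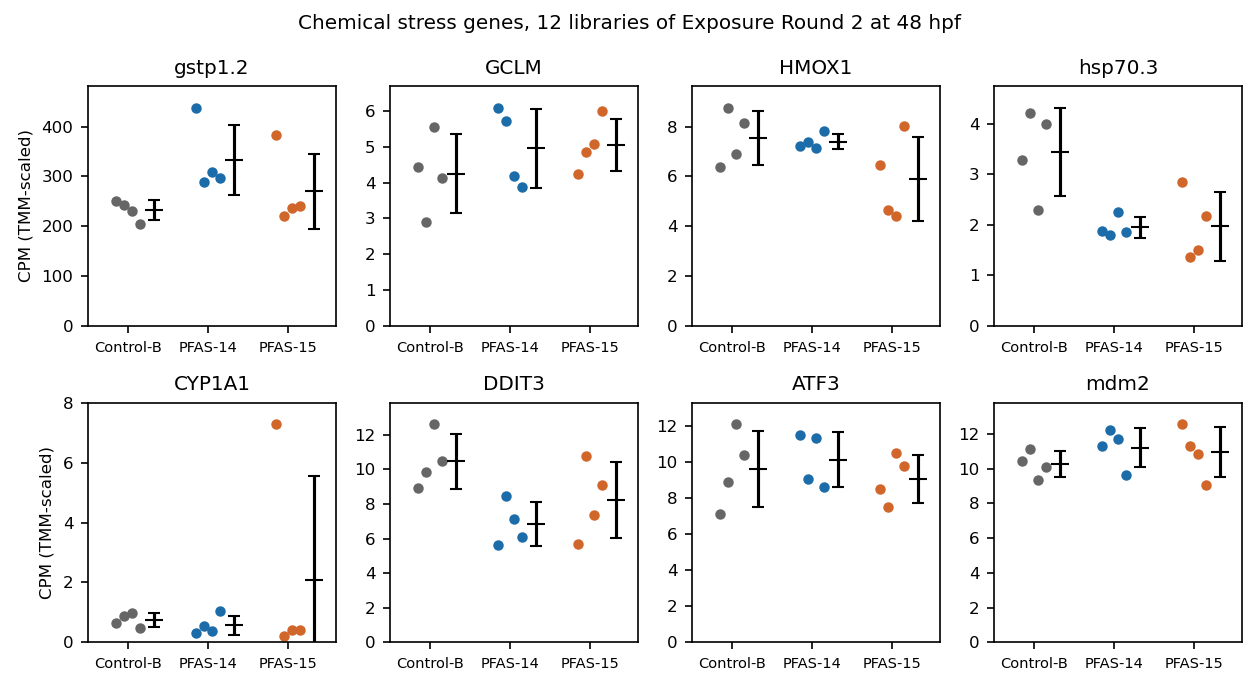
CPM (y axis) of 8 stress genes in the 4 libraries each of Control-B, PFAS 14 and PFAS 15 (x axis): points are libraries and bars the mean ± SD, the lower bar of CYP1A1 in PFAS 15 being cut at 0. gstp1.2 reaches 438 and 383 CPM in replicate 1 of PFAS 14 and PFAS 15, the CYP1A1 point at 7.28 CPM is PFAS 15 replicate 1, and hsp70.3 is at 1.80 to 2.26 CPM in PFAS 14 against 2.29 to 4.21 in Control-B.

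Of the 32 gene lists, the lens had the lowest median in the pooled comparison. The highest, and the one furthest from 0, was that of the 33 innate immune and inflammation genes, 0.19 (0.11 without PFAS 15 replicate 1). Of those, 26 had a pooled log2 fold change above 0, and 1 was higher and 1 lower at an unadjusted p under 0.05. Of 51 lens genes tested, 0 were called, and at an unadjusted p under 0.05 0 were higher and 13 lower (1.26% of all genes were lower). A pooled log2 fold change below 0 was found in 46, with a median of -0.17 against 0.00 over all genes. For PFAS 14 19 were lower at that p (1.52% of all genes were), with a median of -0.20, and for PFAS 15 4 were lower (1.46% of all genes), with a median of -0.12. Without PFAS 15 replicate 1 the PFAS 15 median was -0.18, also with 4 lower. In 17 lens genes all PFAS 14 libraries lay below all controls (1.36% of all genes), and in 7 all PFAS 15 libraries did (1.09%). The 51 genes summed to 13168 to 14095 CPM in Control-B, 10986 to 12892 in PFAS 14 and 11360 to 13727 in PFAS 15. PFAS 15 replicate 1 lay inside the control range of this sum, and all other exposed libraries lay below it. The lens list was drawn up with earlier results of these data known. In whole-embryo RNA, fewer lens fibre cells and less crystallin RNA per cell cannot be told apart.

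Within the list, the gamma M-crystallins of the crygm2d family, the main crystallins of the fish lens, lay below control throughout. These genes are related copies of a family, and how reads that match several of them were counted was not tested. The summed CPM and the single genes may both be affected. The 21 crygm2d genes summed to 8665, 8503, 8336 and 8400 CPM in Control-B, 7806, 7452, 6686 and 6562 in PFAS 14 and 8230, 7563, 7008 and 7618 in PFAS 15. All 8 exposed libraries lay below all 4 controls, and the mean was 15.9% below that of Control-B in PFAS 14 (7127 ± 600 against 8476 ± 144, SD) and 10.28% below in PFAS 15 (7605 ± 500). Without PFAS 15 replicate 1 the PFAS 15 mean was 12.7% below. Every one of the 21 genes had a log2 fold change below 0 in both compounds, with 15 at an unadjusted p under 0.05 in PFAS 14 and 2 in PFAS 15. The genes are copies expressed in the same tissue, and both compounds were set against the same 4 controls. Agreement over genes or compounds is therefore not independent.

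The remaining 30 lens genes, which include beta crystallins, alpha crystallins, aquaporins and lens fibre cytoskeleton, overlapped Control-B through 1 library of each compound: PFAS 14 replicate 1 lay inside the control range and PFAS 15 replicate 1 above it, and the other 6 lay below every control. They summed to 4769 to 5431 CPM in Control-B, 4424 to 5086 in PFAS 14 and 4352 to 5497 in PFAS 15, with means 7.84% and 5.5% below control (10.07% for PFAS 15 without replicate 1). Replicate 1 was the top of the range in all 3 groups. At an unadjusted p under 0.05, 4 of the 30 genes were lower in PFAS 14 and 2 in PFAS 15. CRYBB1, a beta crystallin, was at 1030 to 1065 CPM in Control-B, 882 to 947 in PFAS 14 and 823 to 1044 in PFAS 15, with a pooled log2 fold change of -0.19 ± 0.07. The aquaporins of the lens fibre, both listed as MIP, lay near control, at -0.03 ± 0.09 (ENSDARG00000013963) and -0.04 ± 0.09 (ENSDARG00000037285). BFSP2, a beaded filament protein, had -0.12 ± 0.12.

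Of the single gamma M-crystallin genes, crygm2d11 had the log2 fold change furthest from 0 in PFAS 14. It was at 21.5, 26.7, 21.5 and 26.4 CPM in Control-B, 12.9, 14.4, 8.4 and 9.83 in PFAS 14, and 18.5, 25.4, 15.4 and 15.5 in PFAS 15. The PFAS 14 libraries lay below all controls and below all PFAS 15 libraries, and PFAS 15 replicate 2 lay inside the control range. The log2 fold change was -1.07 ± 0.35 for PFAS 14 and -0.36 ± 0.34 for PFAS 15. crygm2d6 and crygm2d14 were below every control in all 8 exposed libraries: crygm2d6 was at 111 to 124 CPM in Control-B, 74.8 to 103 in PFAS 14 and 91.5 to 101 in PFAS 15. crygm2d14 was at 212 to 240, 148 to 193 and 173 to 199 CPM in the same order, with log2 fold changes of -0.43 ± 0.15 and -0.25 ± 0.15. These crystallin genes were named after their values were seen, and how reads were assigned among the single members was not tested.

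**Figure D4:**
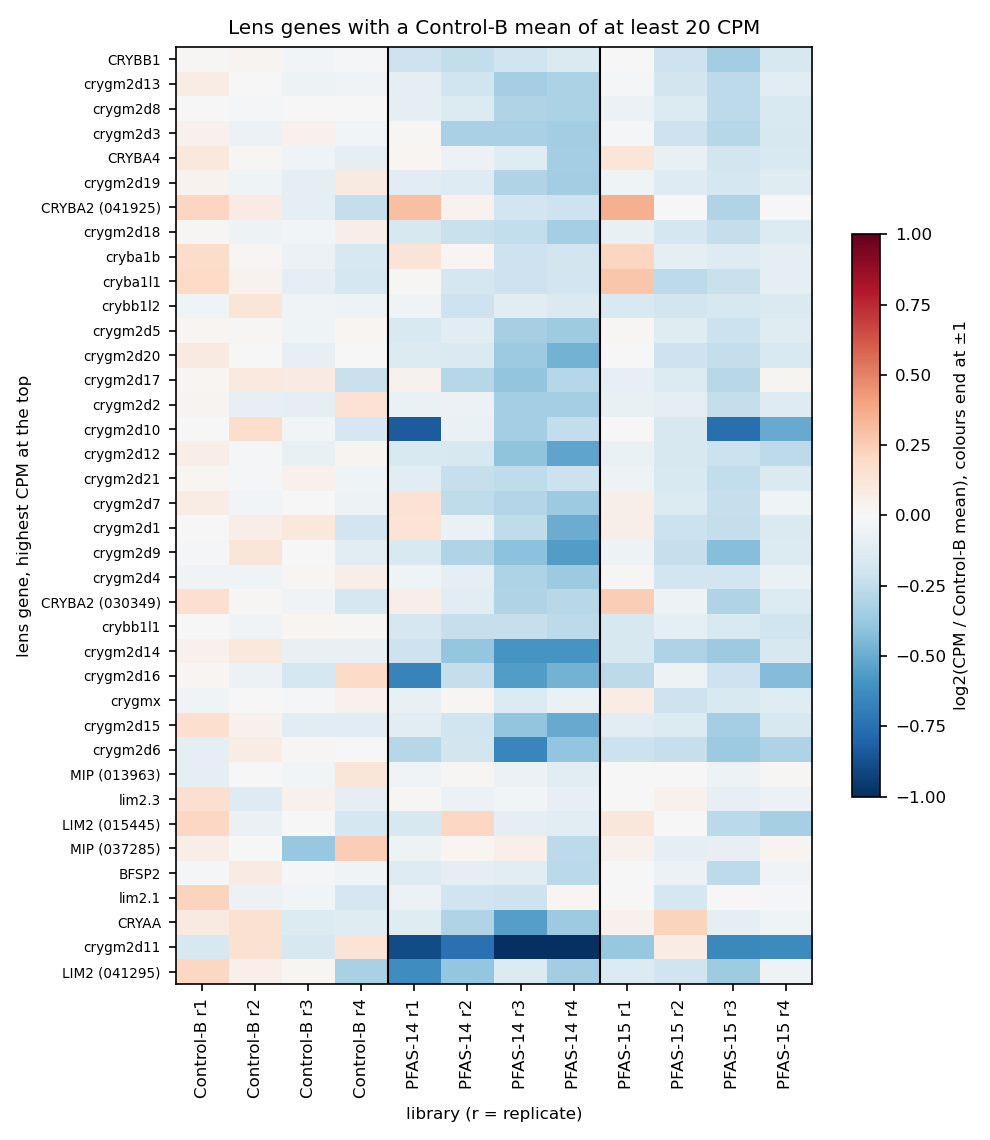
Heat map of log2 CPM relative to the Control-B mean (colour, ending at 1 in either direction) for the 38 lens genes with a Control-B mean of at least 20 CPM (rows) in the 12 libraries (columns, by group). In all 4 PFAS 14 libraries 23 of the 38 genes are below the Control-B mean, and 19 are in all 4 PFAS 15 libraries; 30 genes are below it in all of PFAS 15 replicates 2 to 4, and 22 in replicate 1.

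Among sterol and ion transport genes, those at an unadjusted p under 0.05 were lower. Of 30 genes of cholesterol synthesis and its regulation, 0 were higher and 3 lower at an unadjusted p under 0.05 in the pooled comparison (1.26% of all genes were lower), 0 and 4 in PFAS 14 (1.52%) and 0 and 2 in PFAS 15 (1.46%). The pooled median was -0.05, and -0.12 without PFAS 15 replicate 1. In PFAS 14 the median was -0.13 and in PFAS 15 it was 0.01. The list summed to 345 to 362 CPM in Control-B, 326 to 352 in PFAS 14 and 337 to 374 in PFAS 15, so the groups overlapped. CYP51A1, which demethylates lanosterol, was at 7.78, 5.90, 6.83 and 6.59 CPM in Control-B, 5.33, 5.67, 5.47 and 3.32 in PFAS 14 and 4.31, 3.99, 4.29 and 5.44 in PFAS 15. The exposed libraries all lay below the controls, and the pooled log2 fold change was -0.52 ± 0.20. SC5D, which acts near the end of the same pathway, had -0.56 ± 0.25, with PFAS 15 replicate 4 inside the control range. MSMO1, a sterol oxidase of the same pathway, had -1.22 ± 0.37 at low counts, 1.41 to 2.85 CPM in Control-B, 0.239 to 1.53 in PFAS 14 and 0.458 to 1.57 in PFAS 15. MSMO1 was named after its values were seen.

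Of 30 ionocyte genes, which serve ion and acid exchange across the embryo's skin, 0 were higher and 3 lower at that p in the pooled comparison (1.26% of all genes were lower), 0 and 5 in PFAS 14 (1.52%), and 0 and 2 in PFAS 15 (1.46%). The medians were -0.11, -0.17 and -0.04. RHBG, an ammonia transporter, was at 46.8, 38.2, 42.4 and 46.8 CPM in Control-B, 33.9, 33, 32.8 and 30.9 in PFAS 14 and 42.2, 44.7, 41.8 and 35.2 in PFAS 15. The PFAS 14 libraries lay below all controls and all PFAS 15 libraries, and the PFAS 15 libraries overlapped the controls. The log2 fold change was -0.41 ± 0.12 for PFAS 14, and the gene was named after its values were seen. PFAS 15 replicate 1 had the highest epidermal sum of the 12 libraries, and the part of that in the ionocyte values was not tested; without it, 1 ionocyte gene was lower in PFAS 15, with a median of 0.00078.

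PFAS 14 and PFAS 15, compared directly at the same dose, time and round, differed in no gene that passed the test. This was the 1 pair of compounds compared, and both 4-library groups stood in a single fit, so Control-B does not enter the difference. edgeR called 0 of 21928 genes (0%) with 582 at an unadjusted p under 0.05 (2.65%; 288 higher in PFAS 14, 1.31%, and 294 lower, 1.34%), and DESeq2 called 0 with 582. For 12225 of the 12828 genes above a mean log2 CPM of 1 (95.3%) the 95% interval of the difference stayed within 2-fold, and for 8658 (67.5%) within 1.5-fold. A p that misses the threshold does not show that the compounds act alike. Without PFAS 14 replicate 4, 1 gene was called, KCNJ1, a potassium channel, with a log2 difference of -2.25, and with all libraries its difference was -1.38 ± 0.41.

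The genes of smallest p in the direct comparison, within the same limits, were spread over unrelated roles. cenpn, a kinetochore protein that binds centromeric chromatin, was at 6.88, 6.35, 6.05 and 7.13 CPM in PFAS 14 and 3.12, 4.71, 4.71 and 4.23 in PFAS 15, and at 4.35 to 5.20 in Control-B. The compounds did not overlap (1.1% of all genes had every PFAS 14 library above every PFAS 15 library, and 1.15% below), and the log2 difference was 0.65 ± 0.18 (95% interval 0.29 to 1.02; unadjusted edgeR p = 0.000712). Without PFAS 15 replicate 1 the difference of cenpn was 0.53 ± 0.20. RNF113B, a RING finger protein, did not overlap either, at 23.4 to 26.1 CPM in PFAS 14 and 16.3 to 22.5 in PFAS 15 (0.40 ± 0.12; 95% interval 0.17 to 0.63). mical3b, of a family of actin-oxidising enzymes, had a log2 difference of 0.86 ± 0.27 (95% interval 0.32 to 1.40).

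On the lower side in PFAS 14, PCMT1, which repairs damaged aspartyl residues in proteins, was at 15.4, 17.8, 19.2 and 20.0 CPM in PFAS 14 against 27.5, 21.3, 22.4 and 23 in PFAS 15, with 17.7 to 22.4 in Control-B. The PFAS 14 and PFAS 15 libraries did not overlap, and the log2 difference was -0.38 ± 0.12 (95% interval -0.62 to -0.15), or -0.30 ± 0.13 without PFAS 15 replicate 1. PRRG4, a membrane protein with a vitamin K-dependent domain, had -0.88 ± 0.25 (95% interval -1.38 to -0.38). SEMA3D, a secreted axon guidance cue, had -0.80 ± 0.24 (95% interval -1.28 to -0.33). For PRRG4 and SEMA3D the libraries of the compounds overlapped. Without PFAS 15 replicate 1 the differences of RNF113B, mical3b, PRRG4 and SEMA3D lay further from 0.

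The gene groups described above held no called difference between the compounds. The 51 lens genes had a median direct difference of -0.07, with 0 higher and 2 lower in PFAS 14 at an unadjusted p under 0.05 (1.34% of all genes were lower). The median was -0.04 without PFAS 15 replicate 1. All 21 crygm2d genes had a negative direct difference, with a median of -0.09 and 1 at that p. crygm2d11 differed by -0.71 ± 0.34 (95% interval -1.40 to -0.03). gstp1.2 differed by 0.30 ± 0.18 (95% interval -0.05 to 0.66), and by 0.52 without PFAS 15 replicate 1. That removal kept PFAS 14 replicate 1, which was likewise the highest gstp1.2 library of its group. Over left-out replicates the gstp1.2 difference ran from 0.15 to 0.52. The 30 ionocyte genes had a median of -0.13, with 0 higher and 3 lower at that p, and RHBG differed by -0.33 ± 0.12.

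PFAS 9, the monoacrylate, was read against Control-A in the same fit of 69 libraries, and 1512 genes were called (6.90%), 671 higher and 841 lower. Its dose was 62 µM against 20 µM and its round and control were different, so no comparison of potency can be drawn. For the 671 genes higher in PFAS 9, with a median log2 fold change of 0.49 in PFAS 9, the medians were 0.05 in PFAS 14 and 0.03 in PFAS 15. For the 841 lower genes, with a median of -0.59, they were -0.05 and -0.01. Of the 1512 genes, 1005 (66.5%) had the PFAS 9 sign in PFAS 14 and 842 (55.7%) in PFAS 15, where 53.7% and 52.2% of all genes did.

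The lens and photoreceptor lists had medians below 0 in all 3 acrylates, and so did other lists. The 20 erythroid genes had a median of -0.69 in PFAS 9, where 10 were called lower, beside -0.17 in PFAS 14 and -0.13 in PFAS 15. The 30 ionocyte genes had -0.44 in PFAS 9, where 8 were called lower, -0.17 in PFAS 14 and -0.04 in PFAS 15 with all 4 libraries. Without PFAS 15 replicate 1 the ionocyte median of PFAS 15 was no longer below 0, as given above. For PFAS 9 33 of the 51 lens genes were called lower (as were 841 of all 21928 genes) and 0 higher, with a median of -0.74. All 21 crygm2d genes were called lower in PFAS 9, with a median of -0.89 against -0.24 in PFAS 14 and -0.15 in PFAS 15. crygm2d11 was at -2.59 in PFAS 9, against -1.07 and -0.36 in the diacrylates. The 41 photoreceptor genes had a median of -0.74 in PFAS 9, where 10 were called lower, beside medians of -0.10 for PFAS 14 and -0.02 for PFAS 15, the latter -0.12 once its replicate 1 was left out. gstp1.2 was at 0.80 in PFAS 9 (adjusted p = 0.000338, edgeR), beside 0.52 and 0.21.

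Among the other groups with calls in PFAS 9, the cell division and neural progenitor genes had medians near 0 in the pooled diacrylates. Of the 35 cell division genes, 22 were called higher in PFAS 9 (as were 671 of all 21928 genes), with a median of 0.41, against -0.0027 in the pooled diacrylates. Of the 34 neural progenitor genes 18 were called higher in PFAS 9, with a median of 0.40 against 0.06. AMPD1, the muscle AMP deaminase, was at -1.41 in PFAS 9 and 0.00 ± 0.10 in the pooled diacrylates, and COL10A1, a collagen of bone and cartilage, at -2.12 and -0.10 ± 0.19.

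**Figure D5:**
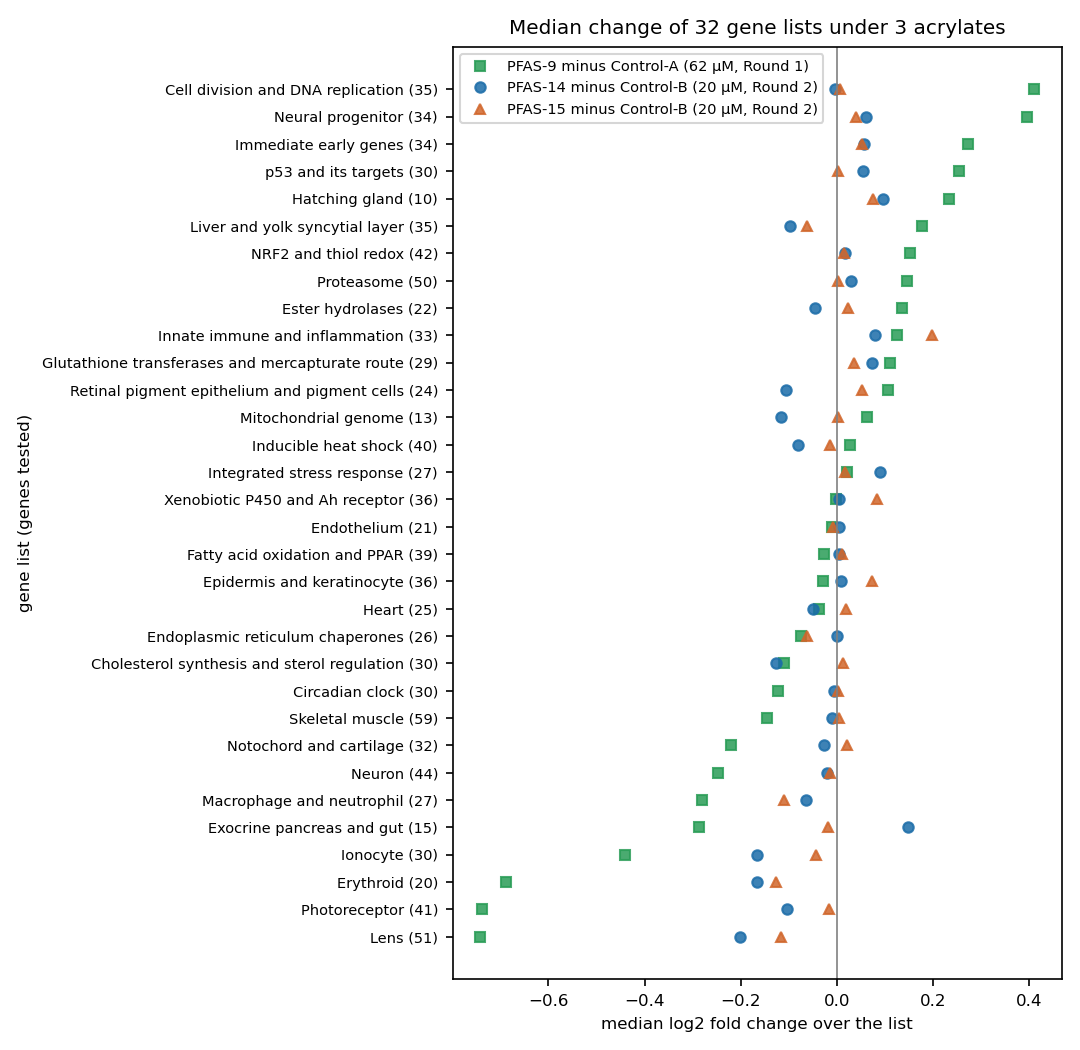
Median log2 fold change (x axis) of 32 gene lists (rows) in PFAS 9 against Control-A and in PFAS 14 and PFAS 15 against Control-B, one point per compound. PFAS 9 reaches -0.74 for lens and photoreceptor and 0.41 for cell division, while the PFAS 14 points lie between -0.20 (lens) and 0.15 (exocrine pancreas and gut) and the PFAS 15 points between -0.13 (erythroid) and 0.20 (innate immune).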

How the data were processed

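The authors aligned 100 bp single-end QuantSeq 3' reads to GRCz11 with STAR and counted them per Ensembl gene with HTSeq, on the sense strand, and deposited raw counts for each library and flow cell; versions are not given in the sources used here. The counts of the 2 flow cells were summed for each library. Deposited tables of the authors' own fold changes and p-values were not used.

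PFAS 5 replicate 1 was left out, as in the study's methods, and the other 69 libraries entered 1 fit in edgeR 4.0.16 (TMM; filterByExpr, min.count 10 and min.total.count 15; glmQLFit and glmQLFTest) in R 4.3.3. Pooled means the 8 diacrylate libraries as 1 class. Standard errors are |log2 fold change| divided by the root of F, and 95% intervals use the t distribution with the fit's degrees of freedom. The scripts were tested on simulated counts. Alternatives were DESeq2 1.42.0, other scalings and filters, fewer libraries in the fit, a replicate block and leaving out each replicate.

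Symbols come from a reference gene table (29201 of 32520 genes), where capital letters mark the name of the human counterpart. Genes were named by rule among those with a symbol and a mean log2 CPM above 1. These were every called gene up to 10 per comparison and the 5 higher and 5 lower of smallest p when pooled. The 3 and 3 of smallest p in the direct comparison were added. So were the 2 of smallest p in each of 13 stress and metabolic lists. The 7 sentinels were named whatever their mean. Not all of these are described, and one is not reported here. The members and lists were chosen with earlier results of these data known.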

Additional observations from a re-analysis of the deposited data

Results flagged for a closer look

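Of 150 groups of 4 libraries examined, 8 had a library whose gap to its neighbours was large for the range of its group; chance gives about 1 in 20. In PFAS 15 replicate 1, CYP1A1 was at 7.28 CPM and gstp1.2 at 383 CPM. In PFAS 14 replicate 1, gstp1.2 was at 438 CPM. hsp70.3 was at 2.26 CPM in PFAS 14 replicate 3, where the other 3 libraries lay between 1.80 and 1.87, and CYP51A1 was at 3.32 CPM in PFAS 14 replicate 4. In Control-B, PSPH was at 57 CPM in replicate 1 and mical3b at 2.51 CPM in replicate 4, and replicate 4 had the fewest genes with a count, 21694. That library also had the lowest total count of Control-B, 14434761. Replicate 4 had the lowest total of its group in PFAS 14 (14265407) and PFAS 15 (16375422) as well. No difference between the compounds passed the test for a named gene.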

How the results depend on the processing

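The count of called genes stayed at 0 in the fit of 69 libraries under every scaling, filter and left-out replicate, except for the direct comparison without PFAS 14 replicate 4 (0 to 1 over left-out replicates). Smaller fits moved it. The 12 libraries of the 3 groups alone gave 1 call each for the pooled, PFAS 14 and PFAS 15 comparisons, the 8 libraries of 2 groups gave 2 for PFAS 14 and 1 for PFAS 15, and the 20 libraries of Round 2 gave 2 for PFAS 14. Leaving out single replicates within Round 2, chosen after seeing the data, gave 0 to 2 pooled and 0 to 3 for PFAS 14. DESeq2 on Round 2, also chosen after seeing the data, gave 4 pooled (crybb1l1, crygm2d6, crygm2d14 and si:ch211-255g12.6) and 8 for PFAS 14. Same-numbered libraries had a mean r of 0.109 in their deviations (12 pairs, the lowest 0.0082) against -0.036 for different numbers (36 pairs), and 9 of 12 libraries were closest to their own number. This is a hint of pairing in the data, but no label gives one and not every pair reached 0.1, so the libraries were not treated as paired. The replicate block within Round 2 gave 1 pooled call and 3 for PFAS 14, and changed no other count of calls.

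Among named genes the pooled value of CYP1A1 turned from 0.85 to -0.69 without PFAS 15 replicate 1 (-0.67 within Round 2). Over left-out replicates it ran from -0.69 to 1.01. That of ATF3, near 0, became -0.0015 with DESeq2 and ran from -0.12 to 0.14 over left-out replicates. Within Round 2 ATF3 was at -0.12, -0.040, -0.034, -0.035 and -0.017 where leaving out a replicate turned it. Genes at an unadjusted p under 0.05 in the pooled comparison numbered 1291 with no filter on low counts and 450 with a mean CPM above 1, as more or fewer genes were tested. The share of PFAS 9 genes with the same sign in the pooled comparison, 63.1%, ran from 56 to 69.4% over left-out replicates. Of the values of named genes under alternatives, 1585 kept their direction and their side of the threshold and 13 turned direction.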
